A study of Saccharomyces cerevisiae with 40 samples.

Results

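The iron uptake machinery of the yeast Saccharomyces cerevisiae was followed through 10 of its genes across 8 groups of RNA-seq libraries. They were taken by systematic name from the 6661 transcripts quantified, and all 10 were found: FIT1 (YDR534C), FIT2 (YOR382W), FIT3 (YOR383C), FRE5 (YOR384W), FET3 (YMR058W), FTR1 (YER145C), ARN1 (YHL040C), ARN2 (YHL047C), SIT1 (YEL065W) and ENB1 (YOL158C). The names were not chosen by a threshold on these libraries, but they were chosen with earlier results of these data known. Shares of members set against all genes are therefore descriptive. The libraries came from S288c (labelled GSY147), a laboratory strain that the study classed as sensitive to the herbicide, and from RM11, a strain descended from a vineyard isolate that it classed as resistant. Cells had grown to mid-log phase in minimal medium (YM) or in YM with tryptophan, tyrosine and phenylalanine (WYF). Cr41, the commercial glyphosate formulation Credit41, was then added to a glyphosate concentration of 0.25% for 90 min, and the other cultures were untreated. The groups were therefore S288c WYF Cr41, S288c WYF untreated, S288c YM Cr41, S288c YM untreated, RM11 WYF Cr41, RM11 WYF untreated, RM11 YM Cr41 and RM11 YM untreated, with 5 libraries in each and 40 in all. Each strain is a single isolate, and the labels do not say whether the 5 libraries of a group came from separate cultures, so p-values measure the spread between these libraries only. The 2 media were sequenced apart, the 20 libraries of WYF on lane 3 and the 20 of YM on lane 2, and a difference between media cannot be told apart from one between lanes. Cr41 and untreated cells, and the 2 strains, shared lanes.

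Yeast takes up iron by reducing it at the cell surface and passing it through a complex of a multicopper oxidase and a permease, or by importing siderophores, the small iron chelators that other microbes release. Cell wall mannoproteins help to hold siderophores near the cell. When iron is short, the transcription factors Aft1 and Aft2 enter the nucleus and switch on the genes of both routes, which together are called the iron regulon. In this set FIT1, FIT2 and FIT3 encode the mannoproteins and FRE5 a member of the ferric reductase family. FET3 encodes the oxidase and FTR1 the permease that works with it. ARN1, ARN2, SIT1 and ENB1 encode siderophore transporters, known for ferrichromes (ARN1), triacetylfusarinine C (ARN2), ferrioxamine B (SIT1) and enterobactin (ENB1).

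The short element TGCACCC, the core to which Aft1 binds, was searched on both strands of the S288c reference genome (RefSeq, build R64). It lay within 500 bases before the coding start of 10 of 10 members, against 140 of 6000 genes in the genome (2.33%). In the shorter window of 250 bases before to 50 bases after the start, 7 of 10 members held it, against 78 of 6001 genes (1.3%). FET3, ARN1 and ARN2 had it only farther upstream. The shorter string CACCC, which lies inside the longer one, was in 33.5% of all 500-base windows. A match is a string of letters in S288c. The sequence of RM11 was not analysed here.

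The site nearest to each start is printed below, 5′ to 3′ on the strand of the gene, with 10 bases on either side. Capitals mark the element or its reverse complement, and the sequences show how far the flanks differ among genes that carry the same core.
FIT1: ttctaggaaaGGGTGCAaaaaaatgaa
FIT3: ttctaggaaaGGGTGCAaaaaaatggg
FIT2: gaatctaactGGGTGCAgtataattag
FRE5: ggaacaaacaGGGTGCAaaaaaaaatc
FET3: tcttcaaaagTGCACCCatttgcaggt
FTR1: cgtagatgaaTGCACCCgatttctaag
ARN1: tttatcaaaaTGCACCCataaaagcag
ARN2: atcagaaaatGGGTGCAgttcttagtt
SIT1: acacatttgaGGGTGCAatctggttcg
ENB1: ggcttacaatTGCACCCctctgtggct

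The FIT1 and FIT3 sites differed at 2 of 27 bases, and the 2 coding sequences were 83.2% identical where they aligned. FIT2 had the most sites, 4, and all of them fell in the stretch chrXV:1059191-1059411 on the plus strand, which runs from 340 to 120 bases before its start. It is printed because FIT2, among the members read in both strains, differed most between untreated S288c and RM11 cells in YM.
FIT2: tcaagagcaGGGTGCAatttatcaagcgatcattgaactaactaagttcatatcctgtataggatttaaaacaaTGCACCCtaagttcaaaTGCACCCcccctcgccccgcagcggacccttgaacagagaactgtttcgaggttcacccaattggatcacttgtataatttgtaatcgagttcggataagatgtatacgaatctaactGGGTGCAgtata

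FIT3 and FRE5 are neighbours on chromosome XV that are transcribed away from each other, with 508 bases between their starts. The 2 sites before FIT3 are the same 2 sites that lie before FRE5. Both are in the stretch chrXV:1061224-1061344, printed on the plus strand, in the direction of FRE5.
FRE5 and FIT3: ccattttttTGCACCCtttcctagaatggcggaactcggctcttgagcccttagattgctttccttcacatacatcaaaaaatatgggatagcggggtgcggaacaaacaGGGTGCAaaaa

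**Figure D1:**
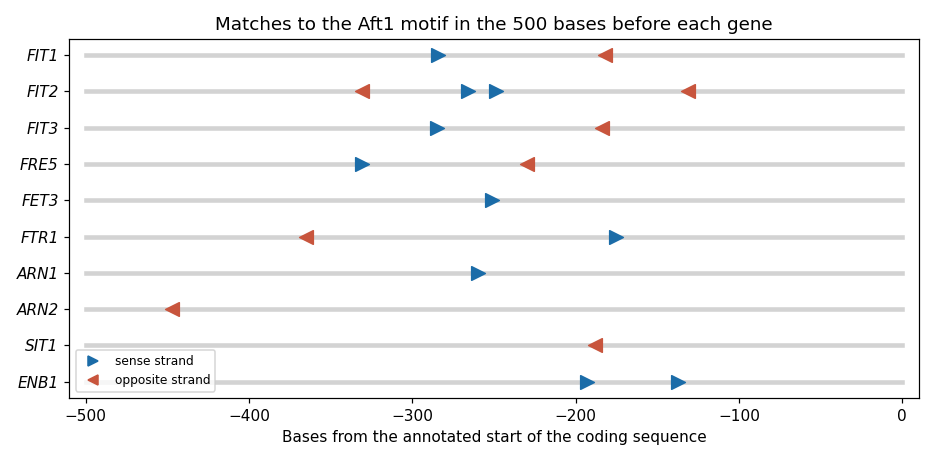
Matches to the Aft1 element in the 500 bases before each gene, with the distance from the coding start on the x axis in bases and 1 gene per row. Triangles that point right lie on the strand of the gene and those that point left on the opposite strand. FIT2 has 4 matches, and the single match of ARN2 lies farthest upstream among the nearest sites, at 447 bases.

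The members also shared a place in the genome that the choice by name did not use. Of the members, 8 of 10 (80%) lay within 32 kb of a chromosome end, against 7.03% of the 5974 transcripts with coordinates. The limit lies just above the farthest of the 8, FIT2 at 31.3 kb, and neighbouring genes are counted singly. The shares therefore describe the set and are no test. FIT2, FIT3 and FRE5 stand side by side on chromosome XV, at chrXV:1059531-1059992, chrXV:1060441-1061055 and chrXV:1061564-1063648, and ENB1 is near the other end of the same chromosome at chrXV:19491-21311. ARN2 (chrVIII:8351-10213) and ARN1 (chrVIII:19088-20971) are near the left end of chromosome VIII. FIT1 is at chrIV:1503314-1504900 and SIT1 at chrV:27657-29543. The exceptions were FET3 (chrXIII:388822-390732) and FTR1 (chrV:460526-461740), which lie 389 and 115 kb from an end. No member overlapped another annotated gene, and none had a copy of 95% identity or more over 100 bases.

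Between 4224356 and 7866046 fragments were assigned to transcripts in a library, with a median of 5729241. ASP3-1, an asparaginase gene of S288c, had 332 or more counts in each S288c library and at most 14 in each RM11 library, as the strain labels imply. The 14 counts were in RM11 WYF untreated library 2, and results that touch it were also computed without it. Some YM libraries stood apart. The 881 transcripts that had under 2 CPM (normalised counts scaled to library size) in every WYF library, counted without the iron genes listed here, summed to between 128 and 170 CPM in WYF libraries. The sums were 2666, 1790, 1162, 202 and 578 CPM in S288c YM Cr41 libraries 1 to 5, against 175, 488, 928, 129 and 146 CPM in S288c YM untreated libraries. In RM11 they were between 140 and 154 CPM in YM Cr41 libraries, against 156, 362, 187, 408 and 168 CPM in YM untreated libraries. Of the quiet transcripts with coordinates, 27.7% lay within 32 kb of a chromosome end. FRE5, at no more than 1.91 CPM in any WYF library, was the 1 listed iron gene that met the same rule and would otherwise have been among them. Results in YM were therefore also computed without the libraries above 700 or above 300 CPM. The lower limit leaves 1 library of S288c YM Cr41, whose spread is then assumed to be that of the other groups.

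The 2 genes of the oxidase and permease complex supplied most of the RNA of the set. Measured as TPM, a share of all transcripts that corrects for transcript length and so allows genes to be compared, the median over 40 libraries was 310 TPM for FTR1 and 222 TPM for FET3. FIT3 followed at 48.6 TPM and SIT1 at 18.6 TPM. ENB1 (9.57 TPM), ARN1 (8.76 TPM) and FIT2 (6.65 TPM) had like medians, and ARN2 (2.52 TPM), FIT1 (0.909 TPM) and FRE5 (0.386 TPM) were lowest. FTR1 and FET3 did not keep one order, since in S288c WYF untreated libraries they averaged 300 ± 52.4 TPM and 305 ± 51.5 TPM (SD, n = 5).

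Together the 10 genes made up 0.0312 ± 0.00225% of TPM in S288c WYF Cr41 libraries, against 0.0721 ± 0.0113% in S288c WYF untreated libraries (SD, n = 5 each, as in all groups). In S288c YM the share was 0.0378 ± 0.00209% with Cr41, against 0.073 ± 0.0137% without. The RM11 shares were 0.0582 ± 0.00291% in WYF Cr41 libraries and 0.0817 ± 0.00784% in WYF untreated libraries. They were 0.0619 ± 0.0121% in RM11 YM Cr41 libraries and 0.131 ± 0.00898% in RM11 YM untreated libraries. The mean share was lower with Cr41 in each strain and medium, and RM11 YM untreated cells had the most RNA of these genes. FET3 and FTR1 carried 92.3% of the members' TPM in S288c YM untreated libraries but 66.3% in RM11 YM untreated libraries, where the genes of the siderophore route were high.

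**Figure D2:**
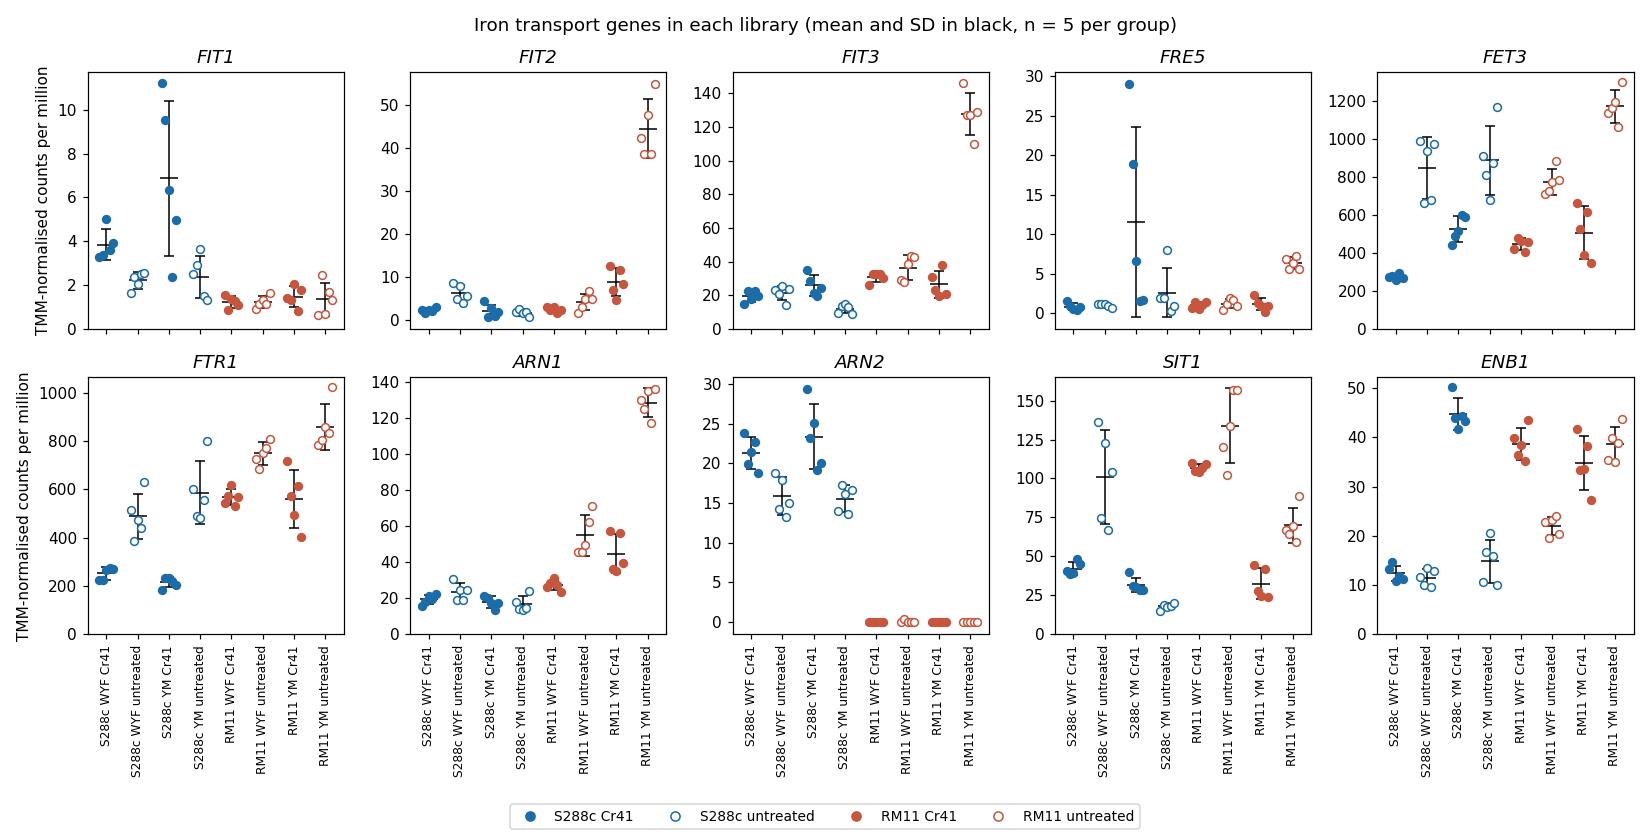
TMM-normalised CPM (y axis, a linear scale of its own for each gene) of the 10 genes in each of the 40 libraries, by group on the x axis. Filled points are Cr41 libraries, open points untreated ones, and black bars give the mean and SD of 5 libraries. FIT2, FIT3 and ARN1 stand out in RM11 YM untreated libraries, at 44.4, 128 and 129 CPM on average, and ARN2 is at or near 0 in RM11.

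The first question was how the genes responded to Cr41 in each strain and medium. Changes are log2 fold changes of Cr41 over untreated from edgeR's quasi-likelihood test, given with their standard error (SE) and Benjamini-Hochberg adjusted p over all genes tested. A gene was called where the adjusted p was under 0.05 and the change was at least 1 on the log2 scale. Values in single libraries are TMM-normalised CPM, in the order of libraries 1 to 5.

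FET3 and FTR1 had lower RNA with Cr41 in all 4 comparisons, and in each of them the Cr41 and untreated libraries did not overlap. In RNA from a whole culture, fewer cells that express a gene and less RNA per cell cannot be told apart. In S288c WYF, FET3 had 273, 277, 257, 295 and 267 CPM with Cr41, against 991, 666, 938, 678 and 976 CPM without. FTR1 had 223, 224, 268, 276 and 271 CPM in S288c WYF Cr41 libraries, against 514, 385, 473, 441 and 631 CPM in S288c WYF untreated libraries. Both genes were tight among treated libraries and spread more widely among untreated ones. The FET3 change was -1.66 (SE 0.12, adjusted p = 8.1e-08, edgeR) and the FTR1 change -0.98 (SE 0.12, adjusted p = 1.7e-05, edgeR), just short of the fold threshold. FTR1 passed it when replicate 2, 3 or 4 was left out (-1.01, -1.01 and -1.04).

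In S288c YM, FTR1 fell the more of the pair. FTR1 had 183, 233, 233, 222 and 205 CPM with Cr41, against 601, 489, 480, 556 and 801 CPM without, a change of -1.48 (SE 0.13, adjusted p = 1.1e-06, edgeR). FET3 had 441, 489, 517, 602 and 588 CPM in S288c YM Cr41 libraries, against 909, 810, 677, 876 and 1170 CPM in untreated ones, a change of -0.79 (SE 0.13, adjusted p = 0.00014, edgeR). The order of the pair differed from that in WYF. The FET3 change was more negative in WYF than in YM by 0.87 (a medium by Cr41 interaction of -0.87, SE 0.19, adjusted p = 0.00081, edgeR), and that of FTR1 less negative by 0.50 (SE 0.19, adjusted p = 0.043, edgeR), both under the fold threshold. Without libraries above 300 CPM of quiet transcripts the S288c YM changes were -1.59 for FTR1 and -0.74 for FET3, so they were about as large.

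RM11 showed the same direction with smaller changes of FTR1. RM11 WYF Cr41 libraries had 423, 478, 466, 408 and 459 CPM of FET3, against 711, 728, 773, 887 and 783 CPM in RM11 WYF untreated libraries, a change of -0.78 (SE 0.06, adjusted p = 1.1e-07, edgeR). In RM11 YM, FET3 had 663, 526, 388, 614 and 348 CPM with Cr41, against 1137, 1164, 1195, 1064 and 1302 CPM without, a change of -1.21 (SE 0.15, adjusted p = 9.4e-05, edgeR). Here the treated libraries were the ones that spread. FTR1 averaged 567 ± 33.6 CPM in RM11 WYF Cr41 libraries and 749 ± 46.3 CPM in untreated ones, a change of -0.39 (SE 0.05, adjusted p = 3e-05, edgeR). In RM11 YM it averaged 560 ± 119 CPM with Cr41 and 860 ± 95.3 CPM without, a change of -0.62 (SE 0.13, adjusted p = 0.0054, edgeR). The strain by Cr41 interaction (the S288c change minus the RM11 change) of FTR1 was -0.58 (SE 0.14, adjusted p = 0.0022, edgeR) in WYF and -0.87 (SE 0.20, adjusted p = 0.001, edgeR) in YM. That of FET3 was -0.86 (SE 0.14, adjusted p = 4.2e-05, edgeR) in WYF and 0.41 (SE 0.22, adjusted p = 0.12, edgeR) in YM. S288c thus lost more FTR1 RNA than RM11 in both media and more FET3 RNA in WYF, by under 1 on the log2 scale.

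Among the mannoprotein genes and FRE5, RM11 in YM gave the widest shifts. FIT2 had 12.5, 6.9, 4.54, 11.6 and 8.18 CPM in RM11 YM Cr41 libraries, against 42.3, 38.6, 47.7, 38.6 and 54.9 CPM in RM11 YM untreated libraries. FIT3 had 30.7, 23, 19.6, 38.3 and 20.8 CPM with Cr41, against 146, 127, 127, 110 and 129 CPM without. FRE5 had 2.32, 1.31, 0.939, 0.21 and 0.982 CPM with Cr41, against 6.83, 5.67, 6.43, 7.29 and 5.62 CPM without. All treated libraries lay below all untreated libraries for each of the 3 neighbours on chromosome XV. The changes were -2.34 for FIT2 (SE 0.20, adjusted p = 2.8e-06, edgeR), -2.28 for FIT3 (SE 0.15, adjusted p = 3.4e-07, edgeR) and -2.35 for FRE5 (SE 0.29, adjusted p = 8.6e-05, edgeR). FIT1, on chromosome IV, was too low to be tested in RM11 and averaged 1.48 ± 0.461 CPM with Cr41 and 1.35 ± 0.755 CPM without in YM. RM11 YM untreated libraries 2 and 4 had quiet transcripts above 300 CPM. Without them the changes of FIT2, FIT3 and FRE5 were -2.46, -2.35 and -2.33.

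The same genes in S288c YM followed another pattern. FIT3 had 35.3, 28.8, 21.5, 19.8 and 24.6 CPM with Cr41, against 9.72, 13.4, 14.9, 13.1 and 9.14 CPM without, so every treated library was above every untreated one, and the change was 1.07 (SE 0.20, adjusted p = 0.00047, edgeR). FIT2 was low throughout, with 4.23, 0.572, 2.6, 0.862 and 1.72 CPM in S288c YM Cr41 libraries, against 1.77, 2.51, 1.46, 1.85 and 0.571 CPM in untreated ones, and its change of 0.26 (SE 0.52, adjusted p = 0.67, edgeR) did not pass. The FIT3 change fell under the fold threshold without replicate 1 (0.86), without libraries above 700 CPM of quiet transcripts (0.93) and without those above 300 CPM (0.86, adjusted p = 0.037, edgeR).

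FIT1 and FRE5 in S288c YM moved with the quiet transcripts, of which FRE5 is itself 1 by the rule above. FIT1 had 11.2, 9.53, 6.34, 2.37 and 4.95 CPM with Cr41, against 2.5, 2.93, 3.64, 1.51 and 1.33 CPM without, a change of 1.50 (SE 0.42, adjusted p = 0.0078, edgeR) with overlapping groups. FRE5 had 29.1, 18.9, 6.67, 1.51 and 1.72 CPM with Cr41, against 1.91, 1.95, 8.01, 0.336 and 0.952 CPM without, a change of 2.13 (SE 0.89, adjusted p = 0.052, edgeR) with overlapping groups. In both genes the highest treated libraries were 1, 2 and 3 and the highest untreated library was 3, which are the libraries with the highest quiet-transcript sums of their groups. Without libraries above 700 CPM the FIT1 change was 0.76 (adjusted p = 0.18, edgeR) and the FRE5 change 0.26 (adjusted p = 0.75, edgeR). Without those above 300 CPM, which leaves 1 treated library against 3 untreated ones, they were 0.35 (adjusted p = 0.66, edgeR) and 0.41 (adjusted p = 0.75, edgeR). FRE5 passed when replicate 3 was left out (3.26, adjusted p = 0.015, edgeR) or replicate 4 (2.13, adjusted p = 0.046, edgeR), and also by DESeq2 (2.13, adjusted p = 0.02), with RLE scaling (2.15, adjusted p = 0.047, edgeR) and with all 40 libraries in one fit (2.16, adjusted p = 0.00055, edgeR). The part of the quiet transcripts' source in these changes was not tested.

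**Figure D3:**
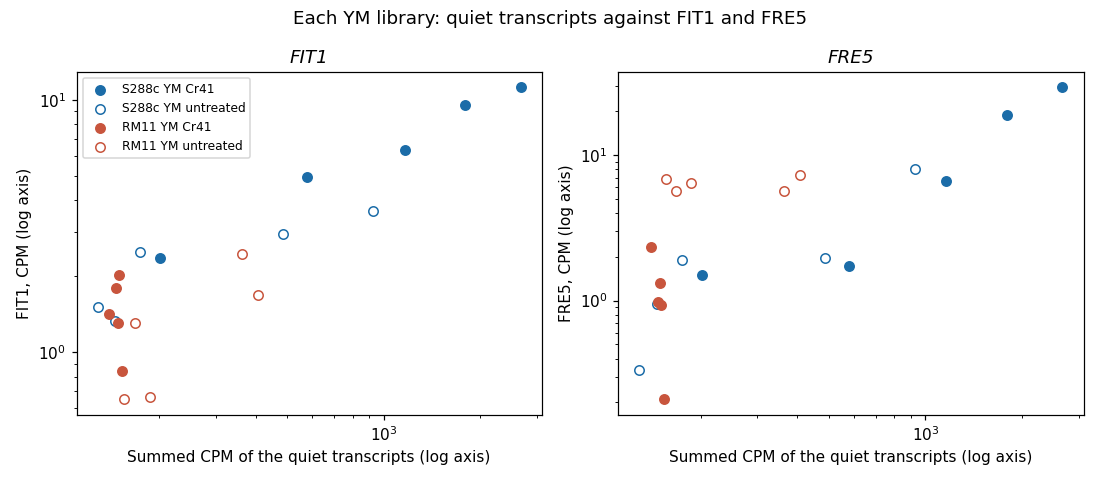
Each of the 20 YM libraries is a point, with the summed CPM of 881 quiet transcripts on the x axis and the CPM of FIT1 (left) or FRE5 (right) on the y axis, all on log axes. Filled points are Cr41 and open points untreated libraries. S288c YM Cr41 libraries 1 to 3 sit at the upper right of both panels, while FRE5 in RM11 YM untreated libraries is between 5.62 and 7.29 CPM at sums of 156 to 408 CPM.

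In WYF, FIT2 in S288c was the 1 mannoprotein gene called. FIT2 had 2.18, 1.62, 2.27, 1.93 and 2.81 CPM in S288c WYF Cr41 libraries, against 8.45, 4.69, 7.9, 3.86 and 5.5 CPM in S288c WYF untreated libraries, a change of -1.51 (SE 0.27, adjusted p = 0.00043, edgeR) with no overlap. FIT1 had 3.28, 3.39, 5.04, 3.62 and 3.94 CPM with Cr41, against 1.63, 2.35, 2.07, 2.49 and 2.54 CPM without. That change was 0.77 (SE 0.21, adjusted p = 0.0077, edgeR), under the fold threshold, with all treated libraries above all untreated ones. It was seen in libraries whose quiet transcripts stayed at 170 CPM or less. FIT3 changed by -0.15 in S288c (SE 0.16, adjusted p = 0.46, edgeR) and -0.22 in RM11 (SE 0.12, adjusted p = 0.19, edgeR), and FIT2 in RM11 by -0.78 (SE 0.33, adjusted p = 0.074, edgeR), which was called without replicate 1 (-1.07, adjusted p = 0.012, edgeR). FRE5 averaged at most 1.23 CPM in WYF groups and was not tested there.

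The siderophore transporter genes did not move as a block. ARN1 fell with Cr41 in RM11, where YM Cr41 libraries had 57.2, 36, 35.2, 56.1 and 39.4 CPM, against 130, 125, 135, 117 and 136 CPM in YM untreated libraries, a change of -1.52 (SE 0.13, adjusted p = 2.8e-06, edgeR). RM11 WYF Cr41 libraries had 26.1, 28.6, 31.1, 27.1 and 23.5 CPM of ARN1, against 45.7, 45.9, 49.8, 62.2 and 71.1 CPM in untreated ones, a change of -0.99 (SE 0.12, adjusted p = 1.7e-05, edgeR). Neither pair of groups overlapped. The WYF change passed the fold threshold without replicate 1, 2 or 3 (-1.04, -1.06 and -1.08) and without untreated library 2 alone (-1.05). In S288c, ARN1 changed by -0.32 in WYF (SE 0.15, adjusted p = 0.1, edgeR) and 0.08 in YM (SE 0.19, adjusted p = 0.72, edgeR), with overlapping groups.

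SIT1 fell in S288c WYF and in RM11 YM and was higher in S288c YM. S288c WYF Cr41 libraries had 40.4, 38.5, 39.1, 48.1 and 45 CPM, against 136, 74.6, 123, 66.7 and 104 CPM in untreated ones, a change of -1.28 (SE 0.18, adjusted p = 5.2e-05, edgeR). RM11 YM Cr41 libraries had 44.2, 27.9, 24.3, 42 and 23.9 CPM, against 67.2, 64.3, 69.8, 59.5 and 88.9 CPM, a change of -1.10 (SE 0.17, adjusted p = 0.0006, edgeR) that was -0.91 without replicate 5. Neither comparison overlapped. In S288c YM the values were 39.9, 30.9, 30.4, 28.4 and 28.6 CPM with Cr41, against 15.2, 18.8, 17.8, 18.2 and 20.2 CPM without, a change of 0.78 (SE 0.13, adjusted p = 0.00018, edgeR), again with no overlap. The S288c YM change was 0.63 (adjusted p = 0.0045, edgeR) without libraries above 700 CPM of quiet transcripts and 0.65 without those above 300 CPM. RM11 WYF gave -0.31 (SE 0.10, adjusted p = 0.02, edgeR).

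ENB1 was the transporter gene with the clearest higher level under Cr41. S288c YM Cr41 libraries had 50.2, 44, 41.8, 44.4 and 43.3 CPM, against 10.7, 16.7, 20.6, 16 and 10.1 CPM in untreated ones, a change of 1.56 (SE 0.18, adjusted p = 9.4e-06, edgeR). RM11 WYF Cr41 libraries had 39.9, 36.4, 38.4, 35.2 and 43.5 CPM, against 22.8, 19.6, 23.2, 24 and 20.4 CPM, a change of 0.82 (SE 0.08, adjusted p = 1.4e-06, edgeR). The groups did not overlap in either, and the treated levels were near each other, as were those of RM11 in YM, at 34.8 ± 5.47 CPM with Cr41 and 38.6 ± 3.58 CPM without (-0.15, SE 0.11, adjusted p = 0.42, edgeR). In S288c WYF, ENB1 averaged 12.4 ± 1.6 CPM with Cr41 and 11.5 ± 1.72 CPM without (0.09, SE 0.14, adjusted p = 0.6, edgeR). Unlike FIT1, ENB1 in S288c YM kept its change without libraries above 700 CPM of quiet transcripts (1.67) and above 300 CPM (1.82, adjusted p = 0.0031, edgeR).

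ARN2 was read in S288c only. It had 29.4, 23.2, 25.1, 19.2 and 20 CPM in S288c YM Cr41 libraries, against 14, 17.3, 16.2, 13.6 and 16.7 CPM in untreated ones, a change of 0.56 (SE 0.15, adjusted p = 0.0051, edgeR). In S288c WYF it had 23.8, 19.9, 21.4, 22.7 and 18.8 CPM, against 18.8, 14.3, 17.9, 13.3 and 15 CPM, a change of 0.40 (SE 0.12, adjusted p = 0.017, edgeR). The YM groups did not overlap and the WYF groups met at 18.8 CPM. Both changes were under the fold threshold, and the YM one was 0.32 (adjusted p = 0.1, edgeR) without libraries above 700 CPM of quiet transcripts.

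Counted over the set, Cr41 in S288c WYF gave 3 members called lower (FET3, FIT2 and SIT1) and 0 higher of 9 tested, where 8.35% of all 5581 genes tested were called, 2.99% higher and 5.36% lower. DESeq2 also called 0 higher there, and at an unadjusted p under 0.05 edgeR found 2 higher, FIT1 and ARN2. S288c YM gave 3 higher (FIT1, FIT3 and ENB1) and 1 lower (FTR1) of 10, where 19.9% of 5716 genes were called, 11% higher and 8.82% lower. In RM11 WYF 0 of 7 were called by edgeR and by DESeq2, against 1.65% of genes, although 6 of the 7 had an unadjusted p under 0.05 and 5 an adjusted one (35.6% of genes). In RM11 YM 6 of 8 were called, all lower (FIT2, FIT3, FRE5, ARN1, FET3 and SIT1), against 1.66% of 5496 genes called and 0.71% called lower. FRE5 was high enough to test there through the untreated libraries only. It could thus only be called lower and is no support beside these shares. The members' share in S288c YM stood nearer to that of all genes than their share in RM11 YM did. The median changes of the members were -0.32, 0.67, -0.39 and -1.37 in S288c WYF, S288c YM, RM11 WYF and RM11 YM, beside medians of all genes between -0.01 and 0.01. The S288c YM median includes the libraries high in quiet transcripts. Without those above 700 CPM, the changes there were lower for all members but FET3 and ENB1.

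Treated and untreated libraries did not overlap for 5 of 9 members tested in S288c WYF, where 36.3% of all genes tested did not. The counts were 6 of 10 in S288c YM (53.9%), 4 of 7 in RM11 WYF (24.1%) and 7 of 8 in RM11 YM (14.9%). The last count includes FRE5, with the limit given above. The call in S288c YM rested in part on the libraries named above. Without those above 700 or above 300 CPM of quiet transcripts, 2 members were called there, ENB1 higher and FTR1 lower.

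**Figure D4:**
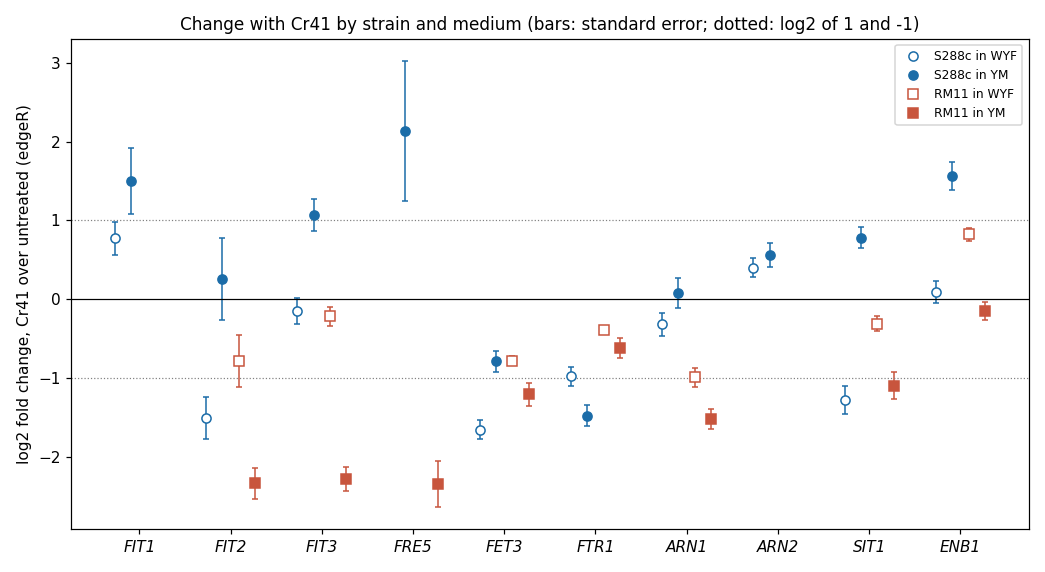
Log2 fold change of Cr41 over untreated (y axis) for each gene (x axis) in the 4 comparisons, with bars of 1 standard error and dotted lines at the fold threshold of 1. Circles are S288c and squares RM11, open in WYF and filled in YM. Genes that were too low to test have no point. RM11 YM lies between -2.35 and -0.15, and S288c YM between -1.48 and 2.13.

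Whether the response differed between the strains was tested by the strain by Cr41 interaction. In YM, 6 of 9 members were called, all with a more positive change in S288c than in RM11, where 19.2% of 5795 genes were called and 11% in that direction. The interaction was 3.35 for FIT3 (SE 0.26, adjusted p = 5.2e-10, edgeR) and 2.59 for FIT2 (SE 0.53, adjusted p = 0.00035, edgeR). It was 1.60 for ARN1 (SE 0.23, adjusted p = 5.7e-06, edgeR), 1.88 for SIT1 (SE 0.23, adjusted p = 6.6e-07, edgeR) and 1.70 for ENB1 (SE 0.20, adjusted p = 4.8e-07, edgeR). FRE5 had the widest error, at 4.49 (SE 1.03, adjusted p = 0.00095, edgeR). Without libraries above 700 CPM of quiet transcripts the FRE5 interaction was 2.63 (SE 0.74, adjusted p = 0.0068, edgeR). The FIT2 interaction was not called without libraries above 700 CPM of quiet transcripts (1.90, SE 0.80, adjusted p = 0.056, edgeR). Without libraries above 300 CPM of quiet transcripts the S288c Cr41 arm is a single library. The FIT3, SIT1 and ENB1 interactions were called there (3.25, 1.90 and 1.99), and those of FIT2 (1.75, adjusted p = 0.33, edgeR), FRE5 (2.79, adjusted p = 0.066, edgeR) and ARN1 (1.10, adjusted p = 0.052, edgeR) were not. FIT1, at 1.40 (SE 0.60, adjusted p = 0.054, edgeR), was called without replicate 3 (1.90, adjusted p = 0.028, edgeR), with RLE scaling (1.43, adjusted p = 0.047, edgeR) and with all 40 libraries in one fit (1.44, adjusted p = 0.0096, edgeR). It was 0.70 (adjusted p = 0.36, edgeR) without libraries above 700 CPM and -0.38 (adjusted p = 0.71, edgeR) without those above 300 CPM.

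In WYF 0 of 8 members had a called interaction between strain and Cr41, where 7.55% of 5669 genes did, and DESeq2 also called 0. At an unadjusted p under 0.05 there were 5, and the same number had an adjusted p under 0.05 (35.1% of genes), among them SIT1 at -0.96 (SE 0.22, adjusted p = 0.0017, edgeR) and ENB1 at -0.71 (SE 0.15, adjusted p = 0.00081, edgeR). Without replicate 4, FIT2 (-1.20), FET3 (-1.04) and SIT1 (-1.20) were called, and without replicate 5, SIT1 (-1.03) was.

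The response to Cr41 was also compared between the media, and lane enters this contrast with medium. In S288c the change was lower in WYF than in YM for 4 of 10 members: FIT2 (-1.76, SE 0.58, adjusted p = 0.019, edgeR), FIT3 (-1.23, SE 0.25, adjusted p = 0.00055, edgeR), SIT1 (-2.07, SE 0.23, adjusted p = 3.6e-07, edgeR) and ENB1 (-1.47, SE 0.22, adjusted p = 2e-05, edgeR). Of all 5754 genes, 9% were called and 6.53% in that direction. In RM11 the change was higher in WYF than in YM for 3 of 8 members: FIT2 (1.57, SE 0.43, adjusted p = 0.023, edgeR), FIT3 (2.08, SE 0.21, adjusted p = 3.1e-06, edgeR) and FRE5 (2.12, SE 0.54, adjusted p = 0.016, edgeR). There 0.739% of 5545 genes were called and 0.433% in that direction. FRE5 was too low to test within RM11 WYF and entered this fit through RM11 YM untreated libraries, so its place among the 3 is no support. The difference between the strains' medium effects was not itself tested. FIT2 in S288c was not called without replicate 1 (-1.17) or 3 (-1.52), nor without libraries above 700 CPM of quiet transcripts (-1.07), and FIT3 in S288c was not without replicate 1 (-0.90). In RM11, FIT2 was not called without replicate 2 (1.46) or 3 (1.34) and FRE5 not without replicate 2 (2.03), while SIT1 (1.02) and ENB1 (1.08) were called without replicate 4, and ENB1 also without replicate 1 (1.09) or 3 (1.03).

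The strains differed before any herbicide was added, mainly in YM. RM11 reads were counted on S288c transcripts, so sequence differences between the strains can lower RM11 counts, and a lower count in RM11 cannot be told apart from reads that failed to map. Most members went the other way. In S288c YM untreated libraries FIT2 averaged 1.63 ± 0.705 CPM, against 44.4 ± 6.92 CPM in RM11 YM untreated libraries, a log2 difference of -4.70 (SE 0.20, adjusted p = 2.8e-10, edgeR). FIT3 averaged 12.1 ± 2.51 CPM in S288c and 128 ± 12.7 CPM in RM11 (-3.41, SE 0.12, adjusted p = 3.9e-11, edgeR). ARN1 averaged 16.7 ± 4.43 CPM in S288c and 129 ± 8.1 CPM in RM11 (-2.96, SE 0.12, adjusted p = 2.5e-10, edgeR).

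These 3 genes had no overlap between the strains, and the same held for SIT1 at 18 ± 1.84 CPM in S288c and 69.9 ± 11.3 CPM in RM11 (-1.96, SE 0.11, adjusted p = 5.9e-09, edgeR). ENB1 averaged 14.8 ± 4.39 CPM in S288c and 38.6 ± 3.58 CPM in RM11 (-1.38, SE 0.16, adjusted p = 4.7e-06, edgeR), also without overlap. FRE5 passed as well (-1.30, SE 0.50, adjusted p = 0.031, edgeR), but S288c library 3, at 8.01 CPM, was above every RM11 library, and without libraries above 700 CPM of quiet transcripts, this one among them, the difference was -2.23 (adjusted p = 4.8e-05, edgeR). FET3 and FTR1 differed less, with FET3 at -0.40 (SE 0.11, adjusted p = 0.006, edgeR) and FTR1 at -0.56 (SE 0.13, adjusted p = 0.0014, edgeR). With ARN2, which was higher in S288c, 7 of 10 members were called in untreated YM cells, 6 of them lower in S288c, where 15.1% of all 5608 genes were called, 6.72% higher and 8.38% lower. The count was also 7 without libraries above 300 CPM of quiet transcripts. The strains did not overlap for 6 of the 10 members, ARN2 among them, but such separation was common in this comparison. Among the lists described below, it held for 16 of 20 further iron genes, 4 of 7 regulators and 16 of 17 genes for iron-using enzymes. ARN2 had 0 counts in RM11 YM untreated libraries and passed the filter through S288c, so it could only be called higher in S288c. FRE5 passed the filter through RM11, so its call as lower in S288c is no support beside the shares.

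Untreated cells in WYF were closer. ARN1 was called lower in S288c (-1.21, SE 0.16, adjusted p = 4.2e-05, edgeR), at 23.6 ± 4.8 CPM against 54.9 ± 11.3 CPM in RM11, and ARN2 higher, which made 2 of 9 members, where 10.8% of genes were called, 5.87% higher and 4.91% lower. FIT2 was at 6.08 ± 2.01 CPM in S288c and 4.1 ± 1.93 CPM in RM11 (0.57, SE 0.33, adjusted p = 0.17, edgeR), so the large difference of YM was not seen. Under Cr41, 5 of 9 members were called in each medium, 2 higher and 3 lower in S288c. Of all genes, 16.2% were called in WYF (7.78% higher and 8.45% lower) and 26.1% in YM (13.3% higher and 12.8% lower). In WYF, FTR1 (-1.13), SIT1 (-1.31) and ENB1 (-1.59) were lower in S288c, and FIT1 (1.66, SE 0.23) and ARN2 were higher. In YM, FIT2 (-2.11), FTR1 (-1.41) and ARN1 (-1.34) were lower in S288c, and FIT1 (2.17, SE 0.40) and ARN2 were higher. FIT1 and ARN2 passed the filter through S288c, since both were too low to test within RM11. They could thus only be called higher in S288c, so the 2 higher calls are no support beside the shares of all genes. The same holds for ARN2 in untreated WYF cells. In YM the FIT1 difference was 1.25 without libraries above 700 CPM of quiet transcripts and 0.63 without those above 300 CPM. FIT3 under Cr41 in YM was at 26 ± 6.23 CPM in S288c and 26.5 ± 7.88 CPM in RM11 (-0.05, SE 0.21, adjusted p = 0.85, edgeR), although untreated cells of the strains had been far apart.

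ARN2 gave the sharpest strain contrast. In RM11 it had 0 counts in 19 of 20 libraries and 2 counts in WYF untreated library 2, which is also the library with 14 counts of ASP3-1. S288c libraries summed to 511 counts in WYF Cr41, 461 in WYF untreated, 618 in YM Cr41 and 477 in YM untreated. Set against 3 counts over the 5 RM11 libraries, the limit that a count of 0 allows, ARN2 was at least 170-fold higher in S288c in WYF Cr41, at least 200-fold in YM Cr41 and at least 155-fold in YM untreated. In WYF untreated the ratio was 239, with an exact 95% interval of 65.9 to 1983 that covers counting error only.

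Some of its neighbours at the left end of chromosome VIII also had few reads in RM11. COS8 (chrVIII:6401-7546) had a median of 85.2 CPM in S288c and 5.42 CPM in RM11, and DFP4 (chrVIII:13565-14272) 15.3 CPM in S288c and 0.487 CPM in RM11. PXP3 (chrVIII:12502-12849) had 49 counts in S288c and 0 in RM11 over all libraries. Others differed less or the other way. YHL050C (chrVIII:445-3311), nearest to the end, had a median of 21.5 CPM in S288c and 14.9 CPM in RM11, YHL049C (chrVIII:3726-4541) 14.9 CPM in S288c and 8.6 CPM in RM11, and YHL042W (chrVIII:15667-16119) 1.17 CPM in S288c and 0.907 CPM in RM11. YHL041W (chrVIII:17392-17841) had 10 counts in S288c and 42 in RM11. ARN1, next to it, had 19 CPM in S288c and 47.9 CPM in RM11. Absence of the gene and divergence of its sequence in RM11 cannot be told apart in these counts.

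Medium was compared within each strain and treatment, with lane in the same contrast. In RM11 untreated cells, 4 of 8 members were called lower in WYF than in YM, where 1.89% of 5499 genes were called and 1.35% lower. FIT2 averaged 4.1 ± 1.93 CPM in WYF and 44.4 ± 6.92 CPM in YM (-3.44, SE 0.22, adjusted p = 1.9e-08, edgeR). FIT3 averaged 36.4 ± 7.45 CPM in WYF and 128 ± 12.7 CPM in YM (-1.84, SE 0.12, adjusted p = 2e-08, edgeR). FRE5 (-2.36, SE 0.25, adjusted p = 6.3e-06, edgeR) and ARN1 (-1.25, SE 0.11, adjusted p = 5.4e-07, edgeR) were lower as well. FRE5 was too low to test within RM11 WYF and passed the filter here through YM, so it could only be called lower in WYF.

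SIT1 was higher in WYF than in YM in both strains. In RM11 untreated cells it averaged 134 ± 23.9 CPM in WYF and 69.9 ± 11.3 CPM in YM (0.92, SE 0.12, adjusted p = 5.6e-05, edgeR), and it passed the fold threshold without library 2 of the WYF group (1.01). In S288c untreated cells it averaged 101 ± 29.9 CPM in WYF and 18 ± 1.84 CPM in YM (2.48, SE 0.19, adjusted p = 1e-06, edgeR). FIT2 was also higher in S288c WYF (1.84, SE 0.32, adjusted p = 0.00081, edgeR), the reverse of its direction in RM11, and these 2 of 9 members compare with 4.07% of genes called and 3.19% called higher. Under Cr41, ENB1 was lower in WYF in S288c (-1.83, SE 0.11, adjusted p = 9.8e-09, edgeR), the 1 member of 9 called, against 13.6% of genes called and 8.2% called lower. FET3, at -0.93, was called there too without libraries above 700 CPM of quiet transcripts (-1.10). In RM11 under Cr41, SIT1 was higher (1.71, SE 0.16, adjusted p = 2.5e-06, edgeR) and FIT2 lower (-1.89, SE 0.29, adjusted p = 0.00039, edgeR) in WYF, 2 of 7 members against 1.83% of genes called, 0.75% higher and 1.08% lower.

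The levels of the members rose and fell together in part. After the strain means were taken out, Pearson's r over the 40 libraries on log2 CPM was 0.85 for FIT2 with ARN1, 0.81 for FIT3 with ARN1 and 0.81 for FET3 with FTR1. It was -0.67 for FTR1 with ARN2 and 0.12 for FET3 with SIT1. The 40 libraries share groups, lanes and depth, so these values describe the set and carry no p. Among 5343 other genes with sufficient counts, the 5 whose levels were most like the mean of the members were FRE3 (r = 0.80), which encodes a siderophore reductase, GIT1 (0.76), a glycerophosphoinositol permease, PUG1 (0.75), a porphyrin transporter, and YLL053C (0.75) and YHR210C (0.73).

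Other genes of iron handling were counted in lists of their own. Of 20 further genes for uptake, storage and sparing of iron, Cr41 gave 3 called higher and 1 lower in S288c WYF, 4 higher and 1 lower in S288c YM, 2 higher and 0 lower of 19 in RM11 WYF, and 1 higher and 1 lower of 19 in RM11 YM. The 0 lower in RM11 WYF was also 0 by DESeq2, with 1 at an unadjusted p under 0.05. Over all genes 8.35%, 19.9%, 1.65% and 1.66% were called in these comparisons. FET4, a low-affinity iron transporter, was higher in S288c by 2.98 in WYF and 2.95 in YM, at 196 ± 13.3 CPM with Cr41 and 24.5 ± 3.71 CPM without in WYF. In RM11 it was low, at 4.59 ± 0.776 CPM with Cr41 and 2.06 ± 0.933 CPM without in WYF (1.14, adjusted p = 0.0032, edgeR). In these 3 comparisons FET4 went against FET3, the high-affinity oxidase. In RM11 YM its change was 0.25 (adjusted p = 0.43, edgeR), with overlapping groups.

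CTR1, the copper transporter that supplies copper to the oxidase, was higher with Cr41 by 1.82 in S288c WYF, 2.51 in RM11 WYF and 1.58 in RM11 YM, and by 0.66 in S288c YM, under the fold threshold. FRE1 was called higher in S288c WYF (1.53, adjusted p = 3.7e-06, edgeR). In S288c YM, ATX1 was called lower (-1.11, adjusted p = 0.00078, edgeR) and ISU1 higher (1.24, adjusted p = 4.5e-09, edgeR). FRE3 was lower in RM11 YM (-1.01, adjusted p = 0.0001, edgeR) and TIS11, whose product degrades mRNAs of iron-using proteins, was lower in S288c WYF (-1.05, adjusted p = 0.00017, edgeR). FRE2 and FRE4, both ferric reductases, were called higher in S288c YM (1.08 and 1.77). They averaged 11.5 ± 7.57 and 12.3 ± 8.59 CPM in those Cr41 libraries, where the quiet transcripts ran high, and their part in the result was not tested.

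The transcripts of Aft1 and Aft2 themselves changed by at most 0.34 on the log2 scale, in either direction. AFT1 changed by -0.34, 0.26, -0.23 and -0.21 and AFT2 by 0.14, 0.33, -0.01 and 0.25 in S288c WYF, S288c YM, RM11 WYF and RM11 YM, and neither was called in any of them. Of 7 regulators, GRX4, a glutaredoxin that inhibits Aft1 when iron is sufficient, was the 1 called, in S288c YM, at 118 ± 9.81 CPM with Cr41 and 17 ± 2.53 CPM without (2.76, adjusted p = 3.5e-10, edgeR), where 19.9% of all genes were called. The Cr41 and untreated libraries did not overlap there for 6 of the 7, where 53.9% of all genes did not. Among the 6 were GRX3, another such glutaredoxin (-0.73), and FRA1 (0.67), which also acts in the repression of Aft1. In the other 3 comparisons the GRX4 change was at most 0.33, and 0 of the 7 regulators were called by edgeR or DESeq2. Groups did not overlap for 4 regulators in S288c WYF (36.3% of all genes), 1 in RM11 WYF (24.1%) and 1 in RM11 YM (14.9%).

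Of 17 genes for iron-using enzymes, S288c YM had 4 higher and 6 lower, where 11% of all genes were called higher and 8.82% lower. CYC1, a cytochrome c (-2.15), BIO2, biotin synthase (-2.52), and OLE1, the fatty acid desaturase (-2.16), were among the lower ones. CTT1, a catalase (2.63), and CCP1, cytochrome c peroxidase (2.20), were among the higher ones. CTT1 was also called higher in RM11 WYF (1.10) and RM11 YM (1.05), where it was the 1 gene of this list called. In S288c WYF 0 were called by edgeR and 1 by DESeq2, and groups did not overlap for 13 of the 17, where 36.3% of all genes did not.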

How the data were processed

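RNA had been extracted with hot phenol, made into paired-end libraries with the ScriptSeq Yeast kit and sequenced on an Illumina HiSeq. The authors quantified each library with Salmon 0.13.1 on an index of the S288c transcriptome, whose release is not given in the sources used here, and deposited for each transcript an estimated count, a TPM value (abundance corrected for length) and the lengths behind it. Of 6661 transcripts, 5993 matched RefSeq build R64 by systematic name, and 5637 of the 5956 with a length to compare (94.6%) had the same length, all 10 members among them.

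Estimated counts were rounded to whole numbers, filtered with filterByExpr, scaled by TMM and tested with edgeR 4.0.16 (R 4.3.3) by quasi-likelihood, with the 10 libraries of a comparison or the 20 of an interaction in each fit and Benjamini-Hochberg adjustment over all genes. Calls needed an adjusted p under 0.05 and a log2 change of at least 1. The 10 members' counts were whole to within 0.001 in all 40 libraries, so rounding did not move them. Each SE is the absolute log2 change divided by the square root of F. CPM in the text was scaled over all 40 libraries. The tests were tried on simulated counts first. No 2 libraries of a group were alike within sampling noise (chi-square per degree of freedom of 2.3 or more in all 80 pairs). Alternatives were DESeq2 1.42.0, RLE scaling, other filters, limma 3.58.1 on log2(TPM + 1), all 40 libraries in one fit, effective lengths as offsets, a replicate block, no fold threshold and leaving out each replicate. Leaving out libraries by quiet transcripts, or RM11 WYF untreated library 2, was chosen after seeing the data. The members are the names given above, each with its values. The most similar genes were the 5 with the highest r among genes averaging at least 5 CPM. The members and lists were chosen with earlier results of these data known.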

Additional observations from a re-analysis of the deposited data

Results flagged for a closer look

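In groups of 5 libraries, the gap between the highest or lowest library and its neighbour was set against the group's range, with a limit of 0.71. Of 76 member and group pairs tested, 2 passed, where chance gives about 1 in 20. FRE5 in S288c YM untreated library 3 had a gap of 0.790 of the range, and SIT1 in S288c YM Cr41 library 1 a gap of 0.788. These libraries had the highest quiet-transcript sums of their groups, at 928 and 2666 CPM, whose part in the values was not tested.

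The response to Cr41 differed between the strains in YM, by the interaction test, for FIT2 (2.59), FIT3 (3.35), FRE5 (4.49), ARN1 (1.60), SIT1 (1.88) and ENB1 (1.70), all more positive in S288c than in RM11 on the log2 scale. Without libraries above 700 CPM of quiet transcripts the FIT2 value was 1.90, and not called, and the FRE5 value was 2.63. The response to Cr41 differed between the media in S288c for FIT2 (-1.76), FIT3 (-1.23), SIT1 (-2.07) and ENB1 (-1.47), with the lower change in WYF. In RM11 it differed between the media for FIT2 (1.57), FIT3 (2.08) and FRE5 (2.12), with the higher change in WYF. FRE5 entered that fit through RM11 YM, being too low to test within RM11 WYF. Lane and medium cannot be told apart in the last 7 values.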

How the results depend on the processing

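Over 69 member results, 1045 alternative values were computed. Of these, 954 kept direction and call, 18 changed sign where neither value was called, 21 lost a call, 52 gained one and 0 reversed with a call. The following counts of members called moved by over 1.5 times, and their causes were not tested unless the alternative tests fewer genes or libraries. For Cr41 in S288c YM the count was 4, and it was 2 by limma on TPM, 2 without libraries above 700 CPM of quiet transcripts and 2 without those above 300 CPM. For Cr41 in RM11 WYF it was 0, and it was 1 with all 40 libraries in one fit and 1 without untreated library 2. The strain by Cr41 interaction in YM gave 6, and 3 without libraries above 300 CPM. Medium in S288c under Cr41 gave 1, and 2 by DESeq2, without a filter, with all 40 libraries, and without libraries above 700 or 300 CPM. Requiring at least 10 counts in every library gave 1 for the medium by Cr41 interaction in RM11, where it was 3. Between the strains it gave 3 and 1 in WYF with and without Cr41, and 2 and 4 in YM, where the counts were 5, 2, 5 and 7. For medium it gave 1 in untreated S288c and 1 in RM11 under Cr41, each 2 before. By limma on TPM the untreated strain count in WYF was 1. Without the fold threshold, Cr41 counts were 6 in S288c WYF, 7 in S288c YM and 5 in RM11 WYF, and interaction counts were 5 for strain in WYF and 5 for medium in RM11. Strain counts were 8 and 6 in WYF with and without Cr41, and medium counts 5 and 4 in S288c with and without Cr41 and 8 in untreated RM11. Leaving out each replicate gave between 0 and 2 for Cr41 in RM11 WYF, 0 and 3 for the strain interaction in WYF, 2 and 4 for the medium interaction in S288c, 1 and 5 for that in RM11, and 1 and 2 for medium in S288c under Cr41. On the TPM scale the median change of all genes was -0.14 for Cr41 in S288c YM, -0.17 for the strain interaction in YM and 0.15 for the strains in untreated WYF cells.

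The deviations of same-numbered libraries from their group means had a mean r between -0.0972 and 0.0591 in the 4 Cr41 comparisons. For other numbers it was between -0.0148 and 0.0252. Single pairs in S288c YM ran from -0.27 to 0.457, so a mean over 5 pairs cannot exclude that the numbers pair libraries. With a replicate block 5 members were called for Cr41 in S288c YM in place of 4, since FRE5 passed (2.05, adjusted p = 0.032, edgeR), and counts of members called in the other Cr41 comparisons were 3 in S288c WYF, 0 in RM11 WYF and 6 in RM11 YM, as without it.

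Counts set the limit for FIT1 in RM11 and FRE5 in WYF, which averaged between 0.847 and 1.48 CPM, and for ARN2 in RM11.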
